A study of Mus musculus with 12 samples.

Results

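Glucocorticoid receptor (GR) binding sites at the ends of genes were followed across 4 treatments of BWTG3 cells, a mouse hepatoma line. Each library of GR chromatin immunoprecipitation and sequencing (ChIP-seq) had its own list of peaks, and peaks of the 11 lists that shared at least 1 bp were merged into 47493 regions. Of these, 19226 were called in 2 or more libraries, whichever the treatment. A region belonged to the gene-end set when its centre lay within 1 kb of either end of a protein-coding gene span in mm10, which gave 2508 regions, 13.0% of the 19226. The remaining 16718 are called the other regions. The rule asked for calls in any 2 libraries and for a position, so it did not use the treatment labels. It did use the peak calls, which are also what is counted and compared below. A region could enter through calls in libraries of 1 treatment alone.

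All cells were kept without serum for 24 h. The TNFDEX group (3 libraries) then received 1000 U/ml tumour necrosis factor (TNF) and 1 h later 1 µM dexamethasone (Dex), a synthetic glucocorticoid. The DEX group (3 libraries) received 1 µM Dex, the TNF group (2 libraries) 1000 U/ml TNF, and the NI group (3 libraries) is taken as cells without either agent because its titles name neither. Replicates are described as biological in the series' design. GR was immunoprecipitated with a rabbit antibody, and all 4 groups are the same cell line.

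GR is a nuclear receptor that stays mostly in the cytoplasm until a glucocorticoid binds it, then moves to the nucleus and binds DNA at glucocorticoid response elements, imperfect palindromes of a short AGAACA-type arm. Most of its sites lie far from gene starts, while sites at starts fall among the binding sites of general transcription factors in open chromatin. In liver cells GR target genes serve metabolism, the acute phase and the damping of inflammation, and TNF acts through the transcription factors NF-kB and AP-1.

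Sequences of 8 start regions show what the regions called in libraries with Dex look like where they hold a GR element, and what starts called in every library look like. They are the parts of the regions that lie inside RefSeq promoter windows (GRCm38.p6, the coordinates of mm10), from 250 bases before to 50 after a gene start, and read 5′ to 3′ in the direction of the gene. Capitals in the first 6 mark the letters ACANNNTGT, the core of a GR element, and these regions were chosen after their values were seen because they hold it, so they show no contrast by themselves. Most start windows called with Dex lack it, as counted below, and Fgb was called in TNFDEX alone. Capitals in Mrpl12 mark GCGC and TGCGC parted by any base, the letters of an NRF1 site, and in Kmt2a GGGCGG on either strand, the letters of an Sp1 site. Atp6v0a4 (a proton pump subunit, chr6:38124537-38124643), Slc10a6 (a carrier of sulfated steroids, chr5:103629459-103629644), F11 (coagulation factor XI, chr8:45261982-45262168), Acnat2 (an acyltransferase of the bile acid conjugating family, chr4:49408128-49408311) and Fgb (a fibrinogen chain, chr3:83049892-83050108) are on the minus strand, and Mt1 (the metal binding protein metallothionein, chr8:94178889-94179097) is on the plus strand. Mrpl12 (a mitochondrial ribosomal protein, chr11:120484510-120484686) is on the plus strand and Kmt2a (a histone methyltransferase, chr9:44881323-44881539) on the minus strand.
Atp6v0a4: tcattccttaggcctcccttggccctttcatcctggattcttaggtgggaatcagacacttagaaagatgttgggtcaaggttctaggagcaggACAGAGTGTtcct
Slc10a6: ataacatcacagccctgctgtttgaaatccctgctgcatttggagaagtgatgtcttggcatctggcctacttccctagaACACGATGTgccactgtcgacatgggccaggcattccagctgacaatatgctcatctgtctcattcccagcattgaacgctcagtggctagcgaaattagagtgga
Mt1: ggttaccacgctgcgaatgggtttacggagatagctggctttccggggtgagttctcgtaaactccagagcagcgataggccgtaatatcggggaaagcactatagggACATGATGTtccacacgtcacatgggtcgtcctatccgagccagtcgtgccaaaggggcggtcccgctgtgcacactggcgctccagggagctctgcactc
F11: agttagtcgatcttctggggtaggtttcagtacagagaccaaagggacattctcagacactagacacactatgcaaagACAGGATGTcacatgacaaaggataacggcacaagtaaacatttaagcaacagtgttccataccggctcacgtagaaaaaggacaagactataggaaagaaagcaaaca
Acnat2: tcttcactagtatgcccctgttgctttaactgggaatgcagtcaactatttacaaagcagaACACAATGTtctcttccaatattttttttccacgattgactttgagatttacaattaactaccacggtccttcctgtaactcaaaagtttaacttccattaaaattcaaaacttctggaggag
Fgb: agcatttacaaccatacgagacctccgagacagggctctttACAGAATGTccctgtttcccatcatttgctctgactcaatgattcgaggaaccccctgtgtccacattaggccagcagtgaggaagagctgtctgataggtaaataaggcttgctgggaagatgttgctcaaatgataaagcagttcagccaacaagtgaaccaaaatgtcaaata
Mrpl12: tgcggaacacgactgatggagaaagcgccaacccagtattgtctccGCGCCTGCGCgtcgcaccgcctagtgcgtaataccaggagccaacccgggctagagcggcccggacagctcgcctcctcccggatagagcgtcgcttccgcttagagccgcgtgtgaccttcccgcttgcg
Kmt2a: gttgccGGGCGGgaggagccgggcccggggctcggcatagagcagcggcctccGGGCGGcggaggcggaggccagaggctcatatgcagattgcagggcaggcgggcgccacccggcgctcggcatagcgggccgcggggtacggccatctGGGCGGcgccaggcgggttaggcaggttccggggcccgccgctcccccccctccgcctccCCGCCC

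The Atp6v0a4 region had normalized tag counts, the authors' tags per 20000000, of 133.5, 64.5 and 125.4 in TNFDEX libraries and 69.4, 83.1 and 103.4 in DEX libraries, and no call in TNF or NI libraries. The Slc10a6 region had 90.0, 45.8 and 91.7 in TNFDEX libraries and 48.6, 67.8 and 83.6 in DEX libraries, and it too had no call in TNF or NI libraries. The Mt1 region had 62.2, 50.4 and 123.4 in TNFDEX libraries and 22.3, 34.7 and 70.2 in DEX libraries. All 6 libraries with Dex held these 3 regions and none of the 5 without Dex did, and the same holds for F11, with 17.6 to 35.4 in TNFDEX libraries and 12.4 to 41.4 in DEX libraries. The Acnat2 region was weaker, with 9.5, 7.4 and 10.3 in TNFDEX libraries and 8.2 and 9.5 in 2 of 3 DEX libraries. The core lay 6, 9, 8, 16 and 27 bp from the region centre in Atp6v0a4, Slc10a6, Mt1, F11 and Acnat2.

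The Fgb region was called in the 3 TNFDEX libraries alone, at 18.2, 9.8 and 23.0, with its core 63 bp from the centre. By contrast, Mrpl12 was called in all 11 libraries, at 29.0, 16.4 and 22.6 in TNFDEX, 25.8, 29.1 and 18.1 in DEX, 26.9 and 15.1 in TNF, and 25.3, 21.3 and 19.9 in NI. Kmt2a was also called in all 11, at 21.2, 19.6 and 30.4 in TNFDEX, 19.8, 33.1 and 27.6 in DEX, 18.2 and 16.1 in TNF, and 20.3, 26.1 and 16.5 in NI. All groups overlapped at Mrpl12. At Kmt2a both TNF values lay below every TNFDEX and DEX value and overlapped NI. The lists hold values only for called peaks, so the level behind a missing call is unknown and need not be 0.

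Depth was 39228805 to 51141996 tags per library, with 2524 to 22590 peaks in a list and a lowest normalized tag count of 5.4 to 6.6, so that the weakest peaks rest on few tags. The libraries fell into 2 sets by the summed normalized tag count of their mitochondrial peaks. TNFDEX replicates 2 and 3, DEX replicate 3, TNF replicate 2 and NI replicate 3 had 70983 to 108166, and TNFDEX replicate 1, DEX replicates 1 and 2, TNF replicate 1 and NI replicates 1 and 2 had 1290 to 6953. Each group has libraries of both sets, and values within the sets are given as well. Among 9 hepatocyte marker genes Alb and Krt18 had a gene-end region, and none of 5 macrophage or 5 stromal and endothelial markers did. Peaks do not measure expression, so this says little of the cell type.

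The 2508 regions touched the ends of 2688 genes, 12.3% of the 21900 in the table. One gene end lay within reach of 2085 regions, 402 had ends of 2 or more genes, 219 had 2 or more starts, and 124 had the start of one gene and the far end of another. Strand was known for 79.9% of genes. On that basis 1780 regions lay nearest to a gene start, 248 nearest to the far end of a gene, and 480 nearest to an end of unknown side. The start regions lay close to the start, at a median of 154 bp with 66.5% within 250 bp, while the far-end regions lay at a median of 479.5 bp with 23.4% within 250 bp. Gene-end regions recurred less, since 1050 of them (41.9%) were called in exactly 2 libraries against 27.8% of the other regions, and 10 were called in all 11. Another 3494 regions near gene ends had a call in 1 library and were not included.

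Dex changed the number of GR regions at gene starts by less than the spread between libraries. Start regions numbered 954, 247 and 435 in TNFDEX libraries, 582, 978 and 367 in DEX libraries, 818 and 228 in TNF libraries, and 558, 809 and 163 in NI libraries. Over all libraries the groups overlapped throughout. Part of the spread went with the mitochondrial sets, with a mean of 783 start regions in the lower and 288 in the higher set. Every library with Dex lay above every library without it in the higher set, and the 2 overlapped in the lower set. The mean was 594 ± 308 in the 6 libraries with Dex and 515 ± 311 in the 5 without (SD). Averaged over cells with and without TNF, libraries with Dex had 1.24-fold as many (log2 0.31, exact two-sided permutation within TNF status, p = 0.605), and 1.43-fold within the mitochondrial sets (log2 0.52, exact permutation p = 0.139). The side of the difference depended on single libraries, with log2 -0.15 without TNF replicate 2 and log2 -0.03 without NI replicate 3. When every library was held to its 2522 strongest nuclear peaks, libraries with Dex had fewer start regions (log2 -1.51, exact permutation p = 0.01).

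Far-end regions rose with Dex. They numbered 186, 85 and 149 in TNFDEX libraries, 111, 144 and 129 in DEX libraries, 83 and 20 in TNF libraries, and 33, 63 and 10 in NI libraries. Every library with Dex lay above every library without, by a narrow margin between TNFDEX replicate 2 and TNF replicate 1. The mean was 134.0 ± 34.6 in the 6 libraries with Dex and 41.8 ± 30.5 in the 5 without (SD). The difference was 3.89-fold (log2 1.96, exact two-sided permutation p = 0.005, the smallest that 200 arrangements can give, adjusted p = 0.01 over a family of 10 permutation tests), and 4.61-fold within the mitochondrial sets (exact permutation p = 0.0139, the smallest of 72 arrangements). That family leaves out tests on the other regions alone, within the sets, of the Dex difference by TNF status, and under alternative settings. Start regions relative to far-end regions fell with Dex to 0.319 times their ratio without it (log2 -1.65, exact permutation p = 0.005, adjusted p = 0.01), and to 0.311 times within the sets (exact permutation p = 0.0139). These comparisons by side were added after the counts had been seen.

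**Figure D1:**
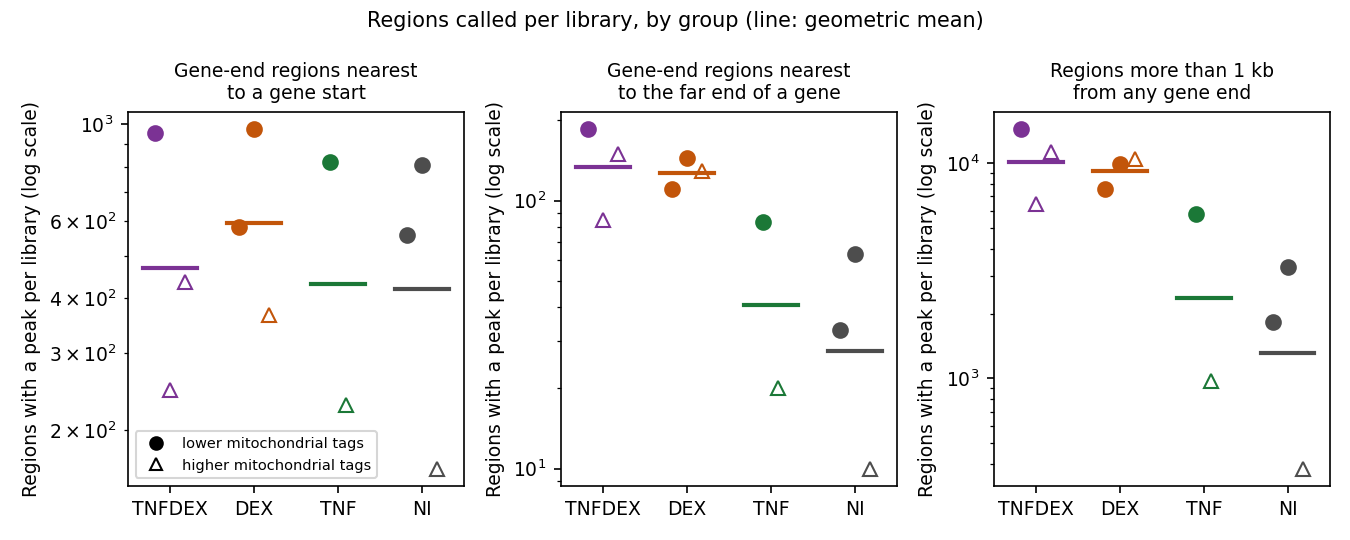
Number of regions called per library on a log scale, for gene-end regions nearest to a start (left), nearest to a far end (middle) and the other regions (right); filled circles are libraries with lower and open triangles libraries with higher mitochondrial tags, and lines are geometric means. Far-end regions lie between 85 and 186 in libraries with Dex and between 10 and 83 in libraries without, while start regions overlap between the groups.

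Counted with the regions of unknown side, gene-end regions numbered 1430, 413 and 729 in TNFDEX libraries, 859, 1392 and 617 in DEX libraries, 1120 and 301 in TNF libraries, and 736, 1051 and 219 in NI libraries. The difference with Dex was within the spread between libraries (1.46-fold, log2 0.54, exact permutation p = 0.355, adjusted p = 0.507). It was 1.69-fold within the mitochondrial sets (exact permutation p = 0.0556) and log2 -0.93 among the 2522 strongest peaks of each library (exact permutation p = 0.035). The other regions rose 5.46-fold with Dex (log2 2.45, exact permutation p = 0.005), to 6407 to 14415 per library, against 382 to 5799 without Dex. Gene-end regions relative to the other regions fell to 0.267 times (log2 -1.90, exact permutation p = 0.005, adjusted p = 0.01), and also fell within the sets (exact permutation p = 0.0139). They were 5.59% to 12.4% of the regions of a library with Dex and 16.2% to 36.4% of those of a library without, with no overlap.

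Far-end regions fell relative to the other regions too, to 0.713 times with Dex (log2 -0.49, exact permutation p = 0.005, adjusted p = 0.01), and by log2 -0.55 within the sets (exact permutation p = 0.0139). That call was lost with peaks of at least 10 normalized tags (log2 -0.10, exact permutation p = 0.705), with peaks at least 8-fold over the input (log2 -0.24, exact permutation p = 0.25) and among the strongest 2522 peaks (log2 -0.019, exact permutation p = 0.78). TNF moved the number of gene-end regions by log2 -0.09 (exact permutation p = 0.86), with log2 0.26 within the mitochondrial sets (exact permutation p = 0.259). Relative to the other regions the TNF difference was log2 -0.59 (exact permutation p = 0.08, adjusted p = 0.133), and -0.50 within the sets (exact permutation p = 0.0741). It passed without DEX replicate 3 (log2 -0.76, exact permutation p = 0.02) and among the strongest peaks (log2 -0.72, exact permutation p = 0.04). The Dex difference with TNF and the one without TNF were not separated for gene-end regions (log2 -0.33, exact permutation p = 0.78), start regions (log2 -0.39, exact permutation p = 0.76) or far-end regions (log2 -0.50, exact permutation p = 0.715).

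The groups were next compared by which gene ends they held, a group holding a region that 2 or more of its libraries had as a peak. TNFDEX called 636 gene-end regions (25.4%, against 59.3% of all 19226 regions), DEX 756 (30.1% against 48.3%), TNF 142 (5.66% against 4.81%) and NI 516 (20.6% against 10.4%). The gene-end shares lay below the background in both groups with Dex and above it in NI. TNF had 2 libraries, so its count asks for both. The count rested on single libraries: without TNFDEX replicate 1 it was 286 in TNFDEX and without replicate 3 it was 292, without DEX replicate 1 it was 397 in DEX and without replicate 2 it was 297, and without NI replicate 1 it was 94 in NI and without replicate 2 it was 82.

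Far ends and starts differed in this respect. Of the 248 far-end regions, 136 were called in TNFDEX, 118 in DEX, 7 in TNF and 24 in NI. Of the 1780 start regions, 373 were called in TNFDEX, 480 in DEX, 109 in TNF and 395 in NI. The NI share of starts lay between the shares of TNFDEX and DEX, while that of far ends lay below both. The far ends held the higher tags, with a median of the group means of 22.2 in TNFDEX and 19.8 in DEX. At starts it was 13.8 in TNFDEX and 13.9 in DEX. A mean of 50 or more was reached by 23 of 136 far-end regions in TNFDEX and 20 of 118 in DEX, and by 21 of 373 and 18 of 480 start regions. No far-end region reached it in TNF or NI, and 1 start region did in NI.

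**Figure D2:**
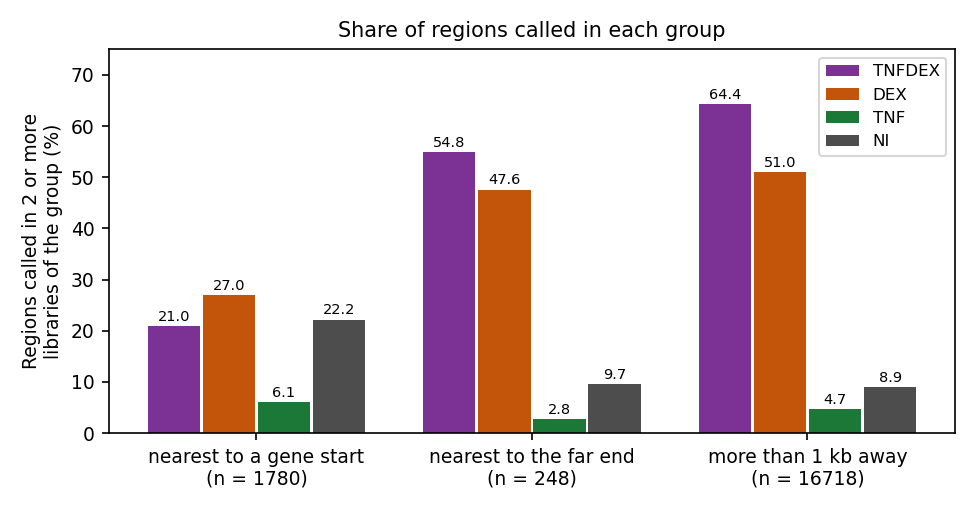
Share of start regions (n = 1780), far-end regions (n = 248) and other regions (n = 16718) called in 2 or more libraries of each group, in percent, from left to right TNFDEX, DEX, TNF and NI. Far-end regions follow the other regions with 54.8% in TNFDEX, 47.6% in DEX and 9.7% in NI, whereas start regions have 21.0% in TNFDEX, 27.0% in DEX and 22.2% in NI.

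The same gene ends were called in part. TNFDEX and DEX shared 373 regions, 58.6% of the TNFDEX set and 49.3% of the DEX set, beside 65.7% and 82.9% for the other regions. DEX and NI shared 246, 32.5% of the DEX set and 47.7% of the NI set, beside 14.7% and 84.2% for the other regions. Further, TNFDEX and NI shared 118, 18.6% of the TNFDEX set and 22.9% of the NI set, beside 9.95% and 71.7%. TNF and NI shared 71, 50.0% of the TNF set and 13.8% of the NI set, beside 66.0% and 34.6%. For far ends the sharing of TNFDEX and DEX was 92 regions, 67.6% of the TNFDEX set and 78.0% of the DEX set, whereas TNFDEX and NI shared 8. A looser count, of regions with any call in the other group, covered 82.1% of the TNFDEX set in DEX and 75.2% of the NI set in DEX, beside 86.8% and 92.6% for the other regions.

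By pattern, 263 gene-end regions (10.5%, against 35.1% of the other regions) were called in TNFDEX and DEX alone, and 239 (9.53% against 1.15%) in NI alone. Alone here means that no other group reached 2 calls, and single calls in other groups were allowed. Of the whole NI set of 516, 388 had a call in DEX. TNFDEX alone had 233 (9.29% against 21.8%), DEX alone 228 (9.09% against 7.31%), DEX and NI alone 126 (5.02% against 1.12%), and all 4 groups 37 (1.48% against 2.81%). For 1197 gene-end regions (47.7%, against 25.3%) no group reached its 2 calls. Pairs of libraries with the same Dex status had a mean Jaccard index (shared calls over calls in either) of 0.248 at gene ends, against 0.157 for pairs of different status. The difference of 0.0916 was above that of all other arrangements (exact one-sided permutation p = 0.005, adjusted p = 0.01), with 0.0663 without TNFDEX replicate 3 (exact permutation p = 0.05). For the other regions the indices were 0.393 and 0.137. Within the lower mitochondrial set the index at gene ends was 0.254 to 0.338 for DEX with NI and 0.206 and 0.288 for TNFDEX with NI. Within the higher set it was 0.0885 for DEX with NI and 0.0760 and 0.0934 for TNFDEX with NI. Pairs alike in TNF status differed from pairs unlike in it by -0.0119 (exact one-sided permutation p = 0.445).

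The mitochondrial sets moved with the calls at starts. Of the 1780 start regions, 930 (52.2%) were called only in libraries of the lower set and 62 only in the higher set, against 66 (26.6%) and 14 of the 248 far-end regions, and 3274 (19.6%) and 919 of the other regions. Whether this set difference plays a part in which starts are called was not tested. The gene lists below are given by set as well as by group.

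Calls were tied to Dex at 104 gene-end regions (4.15%, against 12.5% of all 19226 regions), by a two-sided Fisher exact test per region with Benjamini-Hochberg adjustment over all 19226. All 104 were higher with Dex, and none was lower at an adjusted p under 0.05, in a background of 0%. At an unadjusted p under 0.05, 3 gene-end regions and 5 other regions were lower. Only full separation could pass, as 6 calls in 6 libraries with Dex and 0 in 5 without, or its reverse (Fisher exact p = 0.00216, adjusted p = 0.0173). No region had the reverse pattern. Leaving out any library with Dex left 0 calls. These 104 were 46 of the 1780 start regions (2.58%), 36 of the 248 far-end regions (14.5%) and 22 of unknown side, beside 2299 of the 16718 other regions (13.8%). No gene-end region was tied to TNF by the same test, and neither was any of all 19226 regions (0%). A fully separated region has a Fisher exact p of 0.00216 here too, so a few such regions could not pass the adjustment. This result therefore cannot tell whether single gene ends were tied to TNF. At an unadjusted p under 0.05 were 5 gene-end and 22 other regions, all higher with TNF.

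Hmcn2, whose product hemicentin is an extracellular matrix protein, had the strongest of the regions present in every DEX library and absent from the NI lists. Such regions numbered 144, 5.74% of the gene-end regions against 19.8% of all regions. The Hmcn2 region (chr2:31460391-31460570), inside the gene 258 bp before its far end, had 437.5, 426.3 and 859.3 normalized tags in TNFDEX libraries and 332.7, 437.9 and 927.1 in DEX libraries. Zfp36 encodes tristetraprolin, which drives the decay of cytokine mRNAs. Its region 278 bp past the far end (chr7:28376403-28376610) had 468.6, 247.5 and 507.8 in TNFDEX libraries and 291.5, 354.8 and 529.0 in DEX libraries. Both had no call in the 5 libraries without Dex, and the TNFDEX and DEX values overlapped.

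Lbp, the lipopolysaccharide-binding protein of the acute phase, had 281.2, 208.4 and 382.0 in TNFDEX libraries and 147.7, 189.1 and 339.5 in DEX libraries, at a region (chr2:158305959-158306144) of unknown side. Nfkbia encodes the NF-kB inhibitor IkB-alpha, and its region 655 bp into the gene (chr12:55491890-55492095) had 248.0, 63.0 and 178.9 in TNFDEX libraries and 171.0, 205.0 and 162.0 in DEX libraries. Mknk2, a kinase of the cap-binding factor eIF4E, had 99.3 to 213.8 in TNFDEX libraries and 202.9 to 232.5 in DEX libraries at a region 576 bp past its far end. Frmd8, whose product binds the iRhom proteins that govern TNF shedding, had 92.7 to 183.0 in TNFDEX libraries and 121.5 to 152.9 in DEX libraries, 704 bp past its far end. Hrct1 and Lzts2 also had their regions past the far end, with 93.1 to 164.9 and 54.0 to 127.3 in TNFDEX libraries and 99.2 to 159.1 and 101.1 to 128.4 in DEX libraries. Of these 8 regions 6 lay at far ends, 1 at a start and 1 at an unknown side, and TNFDEX replicate 2 gave the lowest TNFDEX value in all 8.

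The 10 regions called in all 11 libraries were of another kind. One was mitochondrial, near the cytochrome b gene CYTB (chrM:15396-15624), with values from 1290 in NI replicate 1 to 54519 in TNFDEX replicate 3. Its tags entered the sums by which the 2 library sets were told apart, so its split by set was fixed in advance. Beside Mrpl12 and Kmt2a, the strongest were at Tspan12 (a tetraspanin membrane protein), Stx16 (a syntaxin of vesicle fusion), Cpsf1 (a subunit of the mRNA cleavage factor), Gtf3c3 (a subunit of RNA polymerase III factor TFIIIC) and Taco1 (a translational activator of cytochrome oxidase). Stx16 had 29.9, 12.1 and 21.4 in TNFDEX libraries, 21.8, 30.6 and 22.4 in DEX libraries, 23.3 and 11.9 in TNF libraries, and 14.4, 18.8 and 14.1 in NI libraries. Taco1 had 16.6, 10.6 and 16.0 in TNFDEX libraries, 10.9, 13.3 and 9.5 in DEX libraries, 15.2 and 11.5 in TNF libraries, and 11.9, 9.2 and 11.6 in NI libraries. At Taco1 all groups overlapped. At Stx16 every DEX value lay above every NI value, and the other pairs of groups overlapped. Of the 7 nuclear regions named, those of Mrpl12, Kmt2a, Tspan12, Stx16, Gtf3c3 and Taco1 lay at a gene start, 8 to 95 bp from it, and the side of Cpsf1 was unknown.

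**Figure D3:**
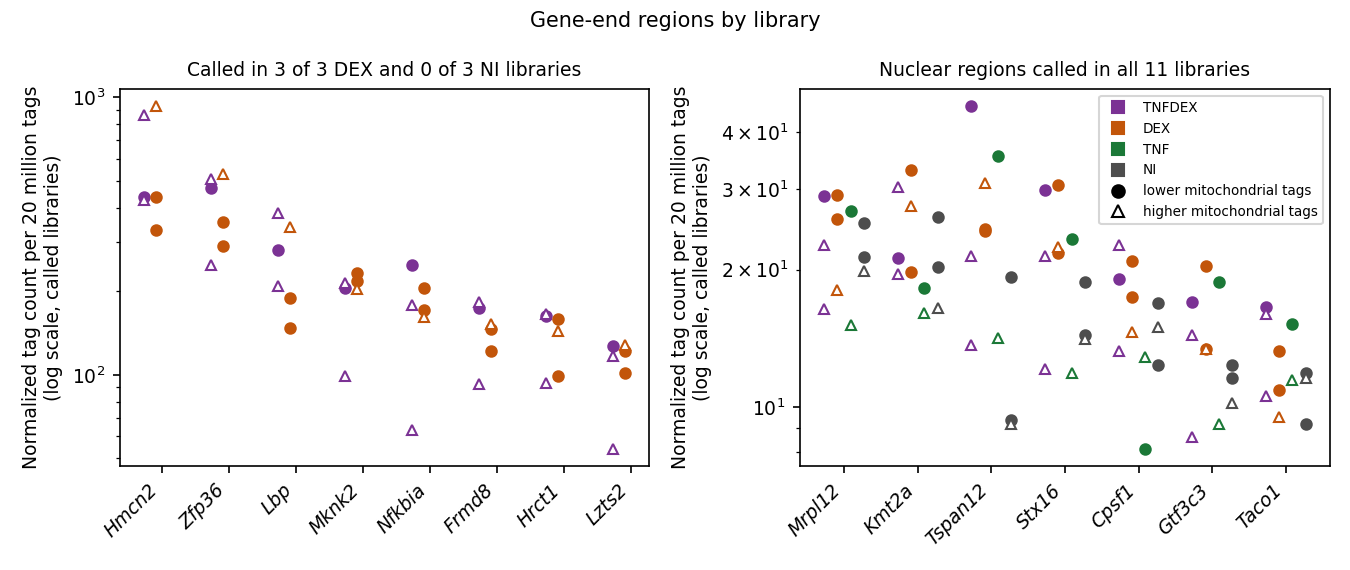
Normalized tag count per 20000000 tags (log scale) in each library with a call, for the 8 strongest regions of those present in every DEX and no NI list (left) and for 7 nuclear regions called in all 11 libraries (right); within each gene the columns run TNFDEX, DEX, TNF and NI, and open triangles are libraries with higher mitochondrial tags. The left-hand regions have values in the 6 libraries with Dex, up to 927.1 at Hmcn2, and the right-hand regions have values of all groups between 8.1 and 45.6.

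Regions that separated NI from DEX the other way were few and weak. Called in 3 of 3 NI and 0 of 3 DEX libraries were 5 gene-end regions (0.199%, against 0.0364% of all regions), all at starts. Cpne1, a calcium-dependent membrane-binding protein, shares its region with Rbm12 and had 11.9, 21.7 and 11.1 in NI libraries. Rpl27, a ribosomal protein, had 9.9, 13.5 and 10.7 in NI libraries, and Ptp4a1, a phosphatase, 7.4, 11.1 and 8.7. The Rpl27 region lay 285 bp from the start. Another Rpl27 region, 10 bp from the start, was called in 3 DEX and 2 TNFDEX libraries and in no TNF or NI library, with a mean of 17.3. The Rpl27 start as such was therefore called in DEX too. Utp18, of ribosome biogenesis, and H2aw, a histone H2A, were also called in TNFDEX replicate 1 and TNF replicate 1.

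Between TNF and NI, 27 gene-end regions (1.08%, against 0.603% of all regions) were called in both TNF libraries and in no NI library. The strongest was at the start of Slc35b2, a sulfate donor transporter, next to the end of Nfkbie, which encodes the NF-kB inhibitor IkB-epsilon. It had 21.2 in TNFDEX replicate 1, 14.3 in DEX replicate 2, and 35.5 and 16.1 in TNF libraries. Junb, a subunit of AP-1, had a region 311 bp past its far end (chr8:84976470-84976727) with 29.0, 21.1 and 33.7 in TNFDEX libraries, 16.4 in 1 of 3 DEX libraries, and 25.9 and 20.7 in TNF libraries. All 5 libraries with TNF held it and 1 of 6 without. The region at the Junb start went otherwise, with no call in TNFDEX, 28.8 and 27.5 in 2 DEX libraries, 29.9 in 1 TNF library and 24.3 and 26.6 in 2 NI libraries, all of the lower mitochondrial set. Dnajc11, a mitochondrial protein, Znrd1as and Pik3r3, a regulatory subunit of phosphoinositide 3-kinase, completed the 5 named, with 10.6 to 19.3 in TNF libraries. The opposite pattern, every NI library and no TNF library, was seen at 7 gene-end regions (0.279%, against 0.0468% of all).

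Dex after TNF separated more regions from TNF alone. In every TNFDEX and no TNF library were 167 gene-end regions (6.66%, against 20.6% of all regions), and in both TNF and no TNFDEX libraries 34 (1.36%, against 0.4%). Between TNFDEX and DEX, 12 gene-end regions (0.478%, against 1.21% of all regions) were called in 3 of 3 TNFDEX and 0 of 3 DEX libraries. BC029722, at a start shared by the ends of Eif6 and Mmp24, had 36.9, 30.1 and 51.0 in TNFDEX libraries, 39.5 and 26.6 in TNF libraries and 25.6 in 1 NI library. Fgb, described above, was joined by Abcc3, a transporter of conjugated bile salts, with 19.1, 12.1 and 18.5 in TNFDEX libraries. Spred1, an inhibitor of Ras signalling, had 22.8, 10.2 and 15.2, and Steap4, a metalloreductase, had 20.7, 10.2 and 13.6 in TNFDEX libraries. These 3 and Fgb had no call in DEX, TNF or NI. In the other direction 8 regions (0.319%, against 0.114%) were called in 3 of 3 DEX and 0 of 3 TNFDEX libraries. Adm, which encodes the vasodilator adrenomedullin, had a far-end region with 10.9, 17.3 and 13.4 in DEX libraries and no other call, and Trub1 (a pseudouridine synthase), Rhob (a small GTPase) and Neurl2 had 9.0 to 17.3 in DEX libraries.

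Tags were compared only where every library of both groups had a call, with limma on log2 normalized tag counts scaled over those regions and adjusted over all of them. For DEX against NI, 179 regions could be tested and 22 were at gene ends. None of the 22 passed at an adjusted p under 0.05 (background 13.4% higher and 2.79% lower), and 5 had an unadjusted p under 0.05. Their median was log2 -0.63, against -0.09 over all 179, with 2 of 22 above 0. This direction depends on the scaling: by library totals alone the median was 0.22, with 19 of 22 above 0, while that of all 179 was 0.76. With the mitochondrial set as a term 8 of the 22 passed, all lower with Dex, while 41 of all 179 regions passed as higher and 30 as lower. Among the 8 were Mrpl12 (log2 -0.73 ± 0.27, SE, limma adjusted p = 0.0349) and Rpl32, a ribosomal protein (log2 -0.93 ± 0.26, limma adjusted p = 0.00682).

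For TNF against NI, 24 gene-end regions could be tested among 152, and none passed in limma (0% of all either way, and 0 of the 24 at an unadjusted p under 0.05). For TNFDEX against DEX, 161 could be tested among 4023, and none passed (0.0497% of all higher and 0% lower), with 14 at an unadjusted p under 0.05, 9 of them higher. The median was log2 -0.03, against -0.01 over all. Pla1a, a phospholipase A1, had 44.0, 25.0 and 39.5 in TNFDEX libraries and 11.9, 14.8 and 15.5 in DEX libraries (log2 1.18 ± 0.26, limma adjusted p = 0.31), and it passed with the mitochondrial set as a term (log2 1.19, limma adjusted p = 0.0182), where 62 of all 4023 regions passed as higher and 2 as lower. It was named after its values were seen.

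For TNFDEX against TNF, 25 gene-end regions could be tested among 508, and 2 passed in limma (background 12% higher and 1.38% lower). Tyw5, a hydroxylase of tRNA wybutosine, had a region inside the gene 804 bp before its far end (chr1:57388919-57389160). It had 70.1, 21.5 and 47.7 in TNFDEX libraries and 9.6 and 7.3 in TNF libraries (log2 1.65 ± 0.35, limma adjusted p = 0.00459), and lost the call by library totals (limma adjusted p = 0.432). Plk2, a polo-like kinase, had a start region (chr13:110394780-110395199) with 10.4, 6.6 and 11.9 in TNFDEX libraries and 20.3 and 11.5 in TNF libraries, which overlap. It was lower in TNFDEX (log2 -1.37 ± 0.43, limma adjusted p = 0.0482), and lost the call by library totals (limma adjusted p = 0.895), with nuclear regions only (limma adjusted p = 0.0567), with log2(value + 1) (limma adjusted p = 0.0617) and without any of the TNFDEX libraries or TNF replicate 1 (limma adjusted p = 0.0554 to 0.116). With the mitochondrial set as a term 8 of the 25 passed, 1 higher and 7 lower, beside 102 higher and 73 lower of all 508. Among the 7 was the mitochondrial CYTB region (log2 -1.28, limma adjusted p = 0.0004), whose own tags helped define the sets. Of the 10 gene-end regions called in all 11 libraries, none passed for Dex (smallest limma adjusted p = 0.104) or for TNF (smallest limma adjusted p = 0.918, background 20.3% higher and 13.6% lower with Dex, 0% either way with TNF), with none at an unadjusted p under 0.05. With the set as a term 5 of the 10 passed for Dex, all lower, beside 27 higher and 36 lower of all 118. CYTB was among these 5 too (log2 -1.01, limma adjusted p = 0.0041), so for it the term rests on its own values. Without that term the median for Dex was log2 -0.54 with this scaling and 0.17 by library totals, so its direction depends on the scaling.

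Position within the gene end also differed between calls. Of the 395 start regions called in NI, 220 (55.7%) had their centre in the first 200 bp downstream of the start and 85 (21.5%) upstream of it. Of the 46 start regions tied to Dex, 2 (4.35%) lay in those first 200 bp and 31 (67.4%) upstream, at a median of -172.5 bp. The 36 far-end regions tied to Dex spread over both sides, 16 of them (44.4%) inside the gene. The 2 classes are defined unlike. The NI class allows calls in any other group, whereas a region tied to Dex has no call without Dex. Of the 480 start regions called in DEX, 187 were also called in NI, and none of these could be tied to Dex. These are counts of regions, many of which share libraries, and no test was made.

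**Figure D4:**
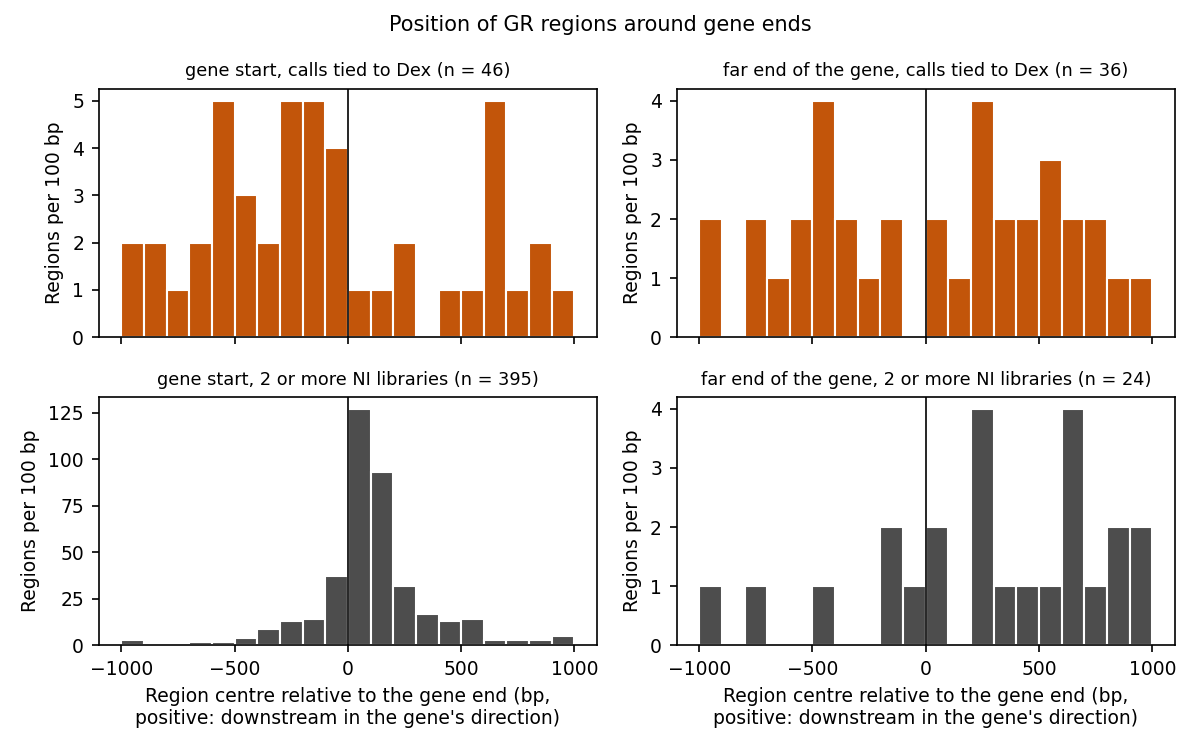
Distance of the region centre from the gene end in bp, positive downstream in the gene's direction, as regions per 100 bp, for regions tied to Dex (top) and regions called in 2 or more NI libraries (bottom), at starts (left) and far ends (right). The NI start regions pile up in the first 200 bp after the start (220 of 395), and the start regions tied to Dex do not (2 of 46). The latter leave out every start called in a library without Dex.

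The letters of the promoter windows were counted by call, as a description without a test. The GR core ACANNNTGT, which reads alike on both strands, was in 12 of 69 windows (17.4%) that held the centre of a region called in 2 or more TNFDEX or DEX libraries and in no library without Dex. It was in 3 of 149 windows (2.01%) with a region called in NI, and in 1270 of all 21263 windows (5.97%). With calls in 4 or more libraries with Dex and none without, it was in 8 of 20. The Sp1 letters GGGCGG, on either strand, were in 25 of the 69 Dex windows (36.2%), 109 of the 149 NI windows (73.2%) and 46.2% of all. The ETS letters CCGGAAG were in 12 of the 69 (17.4%), 31 of the 149 (20.8%) and 11.6% of all, and the AP-1 letters TGANTCA in 2 of the 69, 6 of the 149 and 6.99% of all. The ratio of observed to expected CpG was 0.6 or more in 59.4% of the Dex windows, 89.9% of the NI windows and 47.7% of all, with a median GC content of 58.7%, 64.3% and 56.3%. Motifs could overlap, and 617 gene-end regions had their centre in a window.

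Genes were then grouped by function, and a gene was counted in a group when a region at its end was called in 2 or more of that group's libraries. Over all 21900 genes this gave 3.14% in TNFDEX, 3.79% in DEX, 0.790% in TNF and 2.78% in NI, and a region tied to Dex at 114 genes (0.521%), so that a list with no such gene is near the background. Of 36 glucocorticoid response genes, 17 had a gene-end region, and 11 were called in TNFDEX, 11 in DEX, 1 in TNF and 4 in NI. A region tied to Dex was present at 5 of them, Zfp36, Nfkbia, Mt1, Angptl4 and Cebpd. Mt1 and Nfkbia each had another start region, 337 and 169 bp from the start, called in 1 TNF and 1 NI library. Cebpd had another region called in 1 TNFDEX and 1 TNF library. Angptl4, an inhibitor of lipoprotein lipase, had 55.2, 26.2 and 41.5 in TNFDEX libraries and 15.9, 20.4 and 52.6 in DEX libraries. Cebpd, a transcription factor of the acute phase, had 39.8, 14.9 and 28.8 in TNFDEX libraries and 13.9, 12.7 and 13.4 in DEX libraries. The start of Dusp1, a phosphatase that silences MAP kinases, was called in all 6 libraries with Dex, at 24.2 to 46.1 in TNFDEX and 24.3 to 58.2 in DEX, and at 16.8 in 1 NI library.

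Of 35 NF-kB and TNF target genes, 11 had a gene-end region, and 6 were called in TNFDEX, 2 in DEX, 2 in TNF and 1 in NI. Nfkbia and Tnfaip2 had a region tied to Dex, and Tnfaip2 had 13.3 to 48.1 in TNFDEX libraries and 14.3 to 25.0 in DEX libraries. Saa3, an acute phase protein, had 17.4, 26.2 and 32.5 in TNFDEX libraries and 21.5 in 1 DEX library at its start. Cxcl1, a neutrophil chemokine, had 28.2, 14.5 and 30.8 in TNFDEX libraries, 11.2 in 1 DEX library and 28.4 in 1 TNF library. Ccl20, another chemokine, had 82.1, 52.5 and 33.5 in 1 library each of TNFDEX, DEX and TNF. The counts by library were 9, 5 and 7 genes in TNFDEX, 3, 6 and 3 in DEX, 6 and 2 in TNF, and 3, 2 and 0 in NI. Every TNFDEX library had more than every NI library, and the other pairs of groups met or overlapped.

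AP-1 and immediate early genes, which cells switch on within minutes of a stimulus, had their highest count in NI. Of 34 such genes 17 had a gene-end region, and 4 were called in TNFDEX, 7 in DEX, 2 in TNF and 12 in NI, with none tied to Dex. Egr1, an early growth response factor, had 25.3 in 1 TNFDEX library, 30.2 and 35.7 in 2 DEX libraries, 26.9 in 1 TNF library and 35.2 and 43.0 in 2 NI libraries. Trib1, a pseudokinase, was called in 9 libraries, at 20.7 to 52.7 in TNFDEX, 20.2 to 46.9 in DEX, 37.5 in 1 TNF library and 17.3 and 25.6 in 2 NI libraries. By library the genes numbered 10, 3 and 6 in TNFDEX, 10, 13 and 2 in DEX, 11 and 2 in TNF, and 14, 13 and 0 in NI. The libraries of the lower mitochondrial set held 10 to 14 and those of the higher set 0 to 6, without overlap, and the part of the set in the group counts was not tested.

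Histone genes also split by mitochondrial set. Of 77, 30 had a gene-end region, and 1 was called in TNFDEX, 12 in DEX, 4 in TNF and 19 in NI. By library they numbered 20, 0 and 2 in TNFDEX, 21, 20 and 1 in DEX, 22 and 4 in TNF, and 25, 26 and 1 in NI. The lower set held 20 to 26 and the higher set 0 to 4. Within the lower set, libraries with Dex held 20 to 21 and libraries without Dex 22 to 26. Within the higher set they held 0 to 2 with Dex and 1 to 4 without. The linker histone gene H1f4 had 30.3 in TNFDEX replicate 1, 41.1 and 37.2 in DEX replicates 1 and 2, 47.7 in TNF replicate 1, and 41.6 and 52.2 in NI replicates 1 and 2. H4c4, a histone H4 gene, was called in the same 6 libraries, at 30.7 in TNFDEX, 30.2 and 34.7 in DEX, 34.0 in TNF and 27.2 and 39.1 in NI. Histone genes lie in clusters of near-identical copies, where reads can be placed at more than one copy, and the handling of such reads is not given in the sources used here.

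Ribosomal protein genes, 84 in all, had 39 with a gene-end region, of which 12 were called in TNFDEX, 20 in DEX, 5 in TNF and 21 in NI. By library they numbered 17, 6 and 17 in TNFDEX, 21, 28 and 14 in DEX, 23 and 6 in TNF, and 25, 25 and 10 in NI, and none was tied to Dex. Rplp0, a protein of the ribosomal stalk, had 22.4 and 20.6 in 2 TNFDEX libraries, 24.3 and 19.4 in 2 DEX libraries, 29.9 in 1 TNF library and 26.2 and 29.5 in 2 NI libraries. Of 56 splicing factors 21 had a region, with 4 called in TNFDEX, 7 in DEX, 2 in TNF and 8 in NI. By library the splicing factors numbered 11, 2 and 5 in TNFDEX, 13, 12 and 3 in DEX, 10 and 4 in TNF, and 9, 8 and 4 in NI. In the lower set that was 11 to 13 with Dex and 8 to 10 without, the other direction from the count by group. Of 20 tRNA synthetases 8 had one, with 1, 3, 1 and 5 called in TNFDEX, DEX, TNF and NI. In these 3 lists, the histone list and the AP-1 list, the count by group was highest in NI. For splicing factors and ribosomal protein genes the counts by library do not bear this out. Ribosomal protein genes in the lower set numbered 17 to 28 with Dex and 23 to 25 without. In the higher set they numbered 6 to 17 with Dex and 6 to 10 without. AP-1 and immediate early genes numbered 10 to 13 with Dex and 11 to 14 without in the lower set. In the higher set they went the other way, with 2 to 6 and 0 to 2. The lower mitochondrial set gives 1 library to TNFDEX, 2 to DEX, 1 to TNF and 2 to NI, and counts that ask for 2 libraries can move with this.

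Of 74 translation factors 18 had a gene-end region, with 5 called in TNFDEX, 10 in DEX, 1 in TNF and 8 in NI. The regions of 2 of them were tied to Dex: Eif2ak4, the amino acid sensing kinase GCN2, had 22.3 to 74.7 in TNFDEX libraries and 34.7 to 58.2 in DEX libraries, and Eif4ebp1, a repressor of cap-dependent translation, had 10.6 to 57.6 in TNFDEX libraries and 24.6 to 43.3 in DEX libraries. Of 88 heat shock proteins and chaperonins 26 had a region, with 8 called in TNFDEX, 9 in DEX, 4 in TNF and 8 in NI. Hspa5, the chaperone of the endoplasmic reticulum, was called in 9 libraries, at 10.9 to 19.9 in TNFDEX, 10.3 to 32.6 in DEX, 23.3 in 1 TNF library and 13.9 and 32.4 in 2 NI libraries. Hspb8, a small heat shock protein, had 16.4 to 43.5 in TNFDEX libraries, 19.3 to 23.5 in DEX libraries and 10.1 in 1 TNF library at its far end.

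The proteasome and ubiquitin list had 21 of 89 genes with a region, with 5, 3, 0 and 3 called in TNFDEX, DEX, TNF and NI. The nuclear-encoded respiratory chain had 18 of 96, with 2, 5, 0 and 2 called in the same order of groups. Hepatocyte transcription factors had 6 of 23, with 2, 2, 1 and 0 called, and 1 gene tied to Dex, Cebpd. Foxa3, a forkhead factor of liver genes, had 18.2, 8.6 and 11.9 in TNFDEX libraries and 18.8 and 16.8 in 2 DEX libraries at its far end. The circadian clock list had 2 of 19. Ciart, a repressor of the clock, had 93.3, 40.7 and 85.5 in TNFDEX libraries and 63.0, 86.2 and 100.4 in DEX libraries and was tied to Dex.

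**Figure D5:**
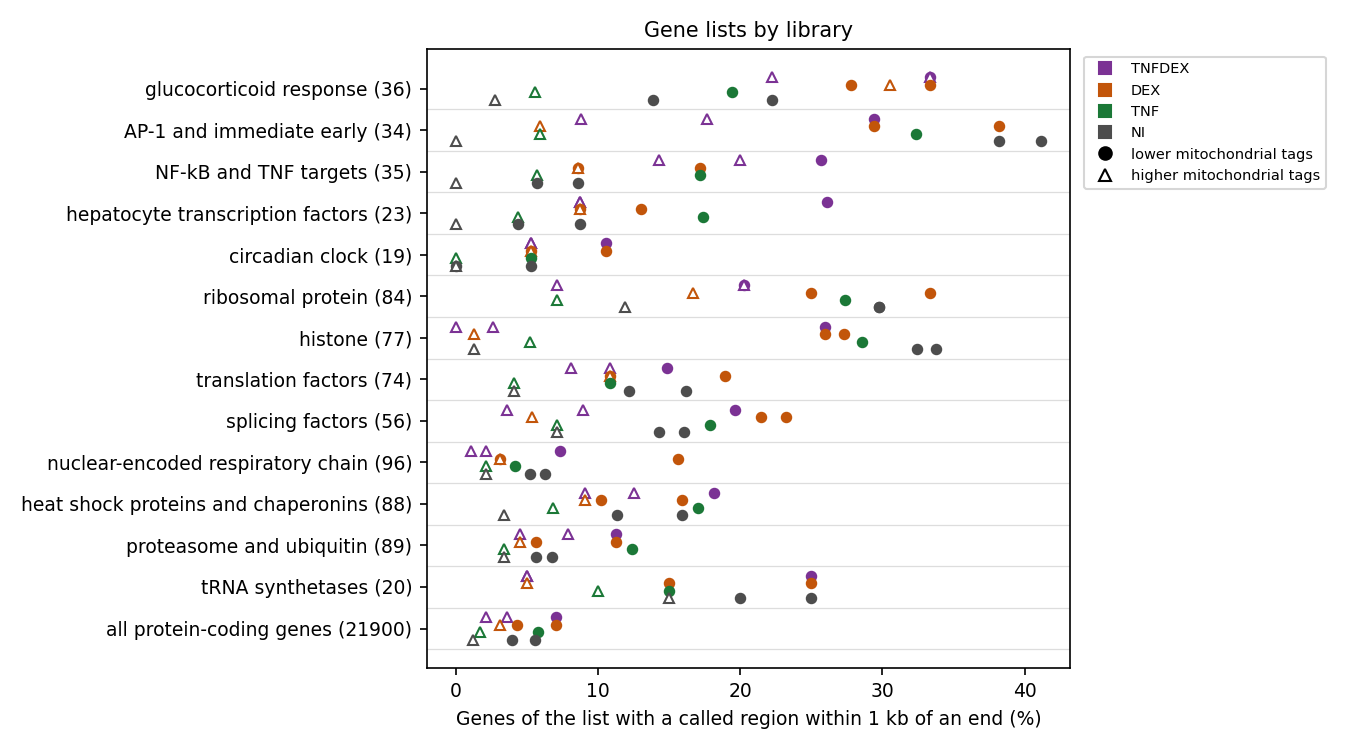
Percent of the genes of each list (number of genes in brackets) with a called region within 1 kb of an end, per library, in rows from top to bottom TNFDEX, DEX, TNF and NI; filled circles are libraries with lower and open triangles with higher mitochondrial tags. Histone genes split by mitochondrial set, with 20 to 26 of 77 in the lower set and 0 to 4 in the higher set, and glucocorticoid response genes have 8 to 12 of 36 in libraries with Dex and 1 to 8 in libraries without, meeting at 8.

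The distance rule cut through similar regions. Just inside 1 kb lay regions near Fmo2 at 996 bp, called in 8 libraries with a mean of 36.5, and near Gng7 at 999 bp, called in 2 libraries with a mean of 31.2. Just outside lay regions near Sys1 at 1006 bp, called in 6 libraries with a mean of 99.5, and near Dusp1 at 1018 bp, called in 2 libraries with a mean of 29.7.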

How the data were processed

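GR ChIP-seq peak lists of 11 libraries of BWTG3 cells were used, and the input sample's own file was not used here. The submitters' processing notes name mm10, CASAVA 1.8, Bowtie 1.0.0 and HOMER 4.6. How reads were filtered, and how duplicate or multiply placed reads were treated, is not given. Peaks were called library by library with findPeaks (factor mode, 1 shared input library), per the file headers, with a false discovery rate of 0.001, a 4-fold excess over the input and another over the surrounding 10000 bp. The deposited signal of a peak is its normalized tag count, the tags in the peak scaled by the authors to 20000000 per library. The lists also hold ratios (fold over input and over surroundings), the focus ratio (a fraction), the findPeaks score and p-values, all deposited by the authors for single peaks. The fold over input served as a filter in 1 alternative, and scores and p-values entered no test.

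Peaks were merged where they shared 1 bp, a region with several peaks of a library taking the one with most tags. Gene spans came from a RefSeq table of GRCm38.p6, and strand from the RefSeq promoter table, whose windows of 300 bases were also searched for motifs. An end of a span need not be the end of every transcript. Numbers and similarity of calls were tested by exact permutation of library labels within the other treatment (200 arrangements), calls per region by Fisher's exact test, and tags with limma 3.58.1 (R 4.3.3, trend, trimmed mean of M values scaling), tested on simulated data first. Adjustment was Benjamini-Hochberg at 0.05, and "called in a group" meant 2 or more of its libraries. Other steps ran in Python 3.11.15 (scipy 1.17.1, pandas 2.3.3, numpy 2.4.6, matplotlib 3.10.9). The gene-end rule, the gene lists and the tests were chosen with earlier results of these data known. Named regions were the 8 strongest called in every DEX and no NI library, the 8 strongest called in all libraries, the 5 strongest per pair of groups separated by calls, those past the limma threshold, up to 4 per gene list, and those at the distance limit. Regions named outside that rule were Atp6v0a4, Slc10a6, F11, Acnat2, Pla1a, Cxcl1, Dusp1 and Rpl32. A region is named for the gene with the nearest end, and no link to that gene's control was tested. Some regions that the naming rule gives are not reported here.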

Additional observations from a re-analysis of the deposited data

How the results depend on the processing

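The fall of gene-end regions relative to the other regions with Dex, the rise of far-end regions, the fall of starts relative to far ends and the similarity by Dex kept direction and side of the threshold in all alternatives but 1. That exception is similarity without TNFDEX replicate 3. Other values moved. Among the 2522 strongest peaks per library the Dex difference in gene-end regions was log2 -0.93, in start regions -1.51 and in far ends relative to the other regions -0.019, and the TNF difference relative to the other regions was -0.72. Far ends relative to the other regions gave -0.10 with 10 normalized tags or more and -0.24 with 8-fold over input. The TNF difference in number was 0.26 within mitochondrial sets. Regions tied to Dex numbered 55 within 0.5 kb and 180 within 2 kb, and TNFDEX called 967 within 2 kb. Asking for every library left 245 in TNFDEX, 264 in DEX and 52 in NI, and 10 normalized tags or more left 69 in TNF and 287 in NI. The cause of these moves was not tested, beyond fewer or more regions by construction.

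Calls in limma with the mitochondrial set as a term were 8 for DEX against NI, 1 for TNF against NI, 2 for TNFDEX against DEX, 8 for TNFDEX against TNF and 5 for Dex over all libraries. The last 2 counts include the mitochondrial CYTB region, whose tags helped define the sets. For TNFDEX against TNF limma calls were 0 by library totals, 1 with log2(value + 1) and 1 with nuclear regions.

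Leaving out each library in turn gave ranges of 0.08 to 1.03 (Dex on number), -0.56 to 0.39 (TNF on number), -2.08 to -1.71 and -0.76 to -0.40 (Dex and TNF on gene-end relative to other regions), -0.15 to 0.78 (Dex on starts), 1.50 to 2.51 (far ends), -1.85 to -1.45 (starts relative to far ends) and -0.59 to -0.31 (far ends relative to others). The similarity difference ran from 0.0663 to 0.120 by Dex and from -0.0249 to 0.00698 by TNF. Regions tied to Dex numbered 0 to 113, and regions called 286 to 637 in TNFDEX, 297 to 757 in DEX and 82 to 517 in NI. With 5 libraries against 5 the smallest Fisher p is 0.00794, which could not pass. Limma calls ranged from 0 to 3 for DEX against NI, 0 to 3 for TNF against NI, 0 to 1 for TNFDEX against DEX, 1 to 20 for TNFDEX against TNF (20 without TNF replicate 2, where the lone TNF library is assumed to vary like the TNFDEX libraries) and 0 to 2 for Dex over all libraries.

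Deviations of same-numbered libraries correlated at -0.64 to 0.74 (11 of 15 pairs over 0.1) and of different numbers at -0.73 to 0.70 (11 of 30). Pairs of the same mitochondrial set were all positive and pairs of different sets all negative. Replicates 1 were all of the lower set, replicates 3 all of the higher set, and replicates 2 of both. A pairing by number can therefore not be told apart from the set for replicates 1 and 3. With a replicate block the Dex difference in number was log2 0.54 (exact permutation p = 0.0313), and limma calls were 4 for DEX against NI, 1 for TNFDEX against DEX and 0 for TNFDEX against TNF.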
